A study of Mus musculus with 24 samples.

Results

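The epidermal differentiation complex is a block of genes on chromosome 3 of the mouse that encodes the structural proteins of the cornified envelope. The genes described here are those whose symbol starts with Lce or Sprr followed by a digit, together with Flg, Flg2, Lor, Ivl, Hrnr, Rptn, Tchh, Tchhl1 and Crnn. They number 47 of the 54232 genes in the count tables, and all 47 lie on chromosome 3 of GRCm38 between bases 92080271 and 93471980. Of these, 44 had 10 or more counts in at least 4 libraries and were tested, as were 19259 genes in all. The 3 that were not tested were Sprr3, with 14 counts over all libraries, and Sprr2c-ps and Sprr2j-ps, with 2 and 117 counts. The annotation lists Sprr2c-ps as a processed pseudogene but Sprr2j-ps, despite its symbol, as protein coding. Sprr2g, which was tested, is listed as a polymorphic pseudogene.

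The RNA came from 24 samples of wounds on the back skin of male db/db mice of the C57BLKS/J strain, which lack a working leptin receptor and are diabetic. Each wound was a 6 mm full-thickness punch made at 16 weeks of age and covered with an alginate bandage that was renewed on day 3, and tissue was taken on day 10, at 17.5 weeks. The control bandage (Ctrl) held no conditioned medium and covered 6 wounds. The other bandages held medium conditioned by primary macrophages, either M0 cells (CM0, 4 wounds), M1 cells (CM1, 4), M2a cells (CMA, 5) or M2c cells (CMC, 5). Every group is diabetic and wounded, and no unwounded or non-diabetic skin was analysed here. The design text gives these numbers as mice, but the labels do not name the mouse of each library or the macrophage donors behind each medium, so that p-values measure the spread between these samples, which may be partly technical. The comparisons ask whether a medium changed the wound tissue and whether the media differed from each other.

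The cornified envelope is a shell of protein that replaces the plasma membrane of a keratinocyte as it dies at the skin surface. Involucrin is laid down early, and loricrin, small proline-rich proteins (the Sprr genes) and late cornified envelope proteins (the Lce genes) are then cross-linked onto it by transglutaminases. Filaggrin and its relatives of the S100-fused family bundle keratin filaments inside the cell, and trichohyalin does so in the inner root sheath of the hair follicle. Sprr1, Sprr2 and Lce3 genes are known to be low in resting skin and high in wounded or inflamed skin, whereas Lor, Flg and the Lce1 genes belong to ordinary terminal differentiation.

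Upstream sequences of 6 genes are shown because their levels below fall into different patterns across libraries. Each is the 250 bases before the RefSeq start site in GRCm38.p6, written 5′ to 3′ on the strand of the gene, with any match on either strand in capitals to TGANTCA (the letters bound by AP-1 factors), CACCC (bound by Krüppel-like factors), TATAAA (the TATA box) or AACCGGTT (bound by grainyhead-like factors).
Lor (loricrin), chr3:92083143-92083392, minus strand: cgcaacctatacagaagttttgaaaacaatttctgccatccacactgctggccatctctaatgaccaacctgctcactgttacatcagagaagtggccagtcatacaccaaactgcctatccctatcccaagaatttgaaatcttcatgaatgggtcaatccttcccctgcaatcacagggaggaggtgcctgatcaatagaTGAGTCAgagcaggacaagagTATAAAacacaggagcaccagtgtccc
Ivl (involucrin), chr3:92573736-92573985, minus strand: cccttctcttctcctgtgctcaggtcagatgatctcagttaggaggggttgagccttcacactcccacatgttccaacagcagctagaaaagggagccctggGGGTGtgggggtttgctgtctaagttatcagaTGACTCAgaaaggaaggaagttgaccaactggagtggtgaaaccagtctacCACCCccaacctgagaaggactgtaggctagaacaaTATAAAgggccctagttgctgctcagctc
Sprr2d, chr3:92338890-92339139, plus strand: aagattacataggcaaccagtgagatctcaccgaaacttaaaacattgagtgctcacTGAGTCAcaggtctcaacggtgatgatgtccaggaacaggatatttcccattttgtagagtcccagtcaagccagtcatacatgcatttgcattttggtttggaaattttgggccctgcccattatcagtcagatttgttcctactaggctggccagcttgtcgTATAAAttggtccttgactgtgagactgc
Sprr2e, chr3:92351893-92352142, plus strand: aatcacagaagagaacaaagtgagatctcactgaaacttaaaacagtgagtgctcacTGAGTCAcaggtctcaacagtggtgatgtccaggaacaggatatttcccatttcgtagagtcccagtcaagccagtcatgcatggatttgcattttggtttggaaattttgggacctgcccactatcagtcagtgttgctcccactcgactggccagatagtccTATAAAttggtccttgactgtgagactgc
Lce1a1, chr3:92648308-92648557, minus strand: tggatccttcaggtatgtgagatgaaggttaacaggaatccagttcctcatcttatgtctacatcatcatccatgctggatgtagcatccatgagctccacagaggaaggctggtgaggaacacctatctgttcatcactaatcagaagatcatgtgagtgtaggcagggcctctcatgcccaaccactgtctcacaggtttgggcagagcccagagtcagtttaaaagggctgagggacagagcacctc
Tchh (trichohyalin), chr3:93442080-93442329, plus strand: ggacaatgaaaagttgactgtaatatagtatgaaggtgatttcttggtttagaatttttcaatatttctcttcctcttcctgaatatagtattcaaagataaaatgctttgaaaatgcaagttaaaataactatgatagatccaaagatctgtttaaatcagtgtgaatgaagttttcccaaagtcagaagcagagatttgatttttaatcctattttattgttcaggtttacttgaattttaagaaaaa
Promoter entries were matched for 43 of the 47 genes. TGANTCA occurred in 16 of the 43 windows (37.2%) against 6.7% of the 32851 windows of the same length in the promoter table. It was present in 7 of the 10 matched Sprr2 windows, both Sprr1 windows, Lor, Ivl and 5 of the 7 S100-fused windows, and in none of the 13 Lce1 or 6 Lce3 windows. In Sprr1b and the 5 S100-fused windows the match was TGAATCA or TGATTCA, not TGAGTCA or TGACTCA. The shares of 37.2% and 6.7% are thus for TGANTCA and not for the AP-1 site alone. In those 7 Sprr2 windows a match began between 198 and 193 bases before the start site. TATAAA began 40 to 20 bases before the start site in 16 windows (37.2%) against 2.5% of all windows. CACCC occurred in 18 of the 43 (41.9%) against 52.0% of all windows, and AACCGGTT in none against 0.1%. The Sprr2d and Sprr2e windows printed above were 88.0% identical at their best ungapped alignment, the Lce1a1 and Lce1a2 windows 66.4%, and windows of genes from different families 30.8% at the median of 743 pairs. Family members share ancestry, so these windows are not independent of each other, and a match is a string of letters only.

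The libraries held 7267879 to 11985292 counts, of which the 47 genes took between 0.262% (CMC 2) and 1.08% (Ctrl 1). Epidermal identity was present throughout: Krt5, Krt14, Krt1 and Krt10, the keratins of basal and suprabasal epidermis, were at 689 CPM or more in every library, while Krt13 and Krt4, keratins of mucosal epithelium, did not exceed 1.64 CPM. CPM here means counts per 1000000 of a library total scaled by the TMM method. In bulk tissue fewer cells of a type and less RNA per cell cannot be told apart, and this holds for every level below. Inner root sheath keratins set 2 controls apart: Krt71 stood at 2187 CPM in Ctrl 3 and 247 CPM in Ctrl 4 and at 6.82 CPM or less in the other controls.

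Loricrin had the highest level per length of the 44 tested genes, at 390 CPM per kilobase of exon (RPKM) averaged over libraries. Rptn (repetin, an S100-fused protein that is cross-linked into the envelope) followed at 178 RPKM, Flg at 137, Lce1m at 120, Lce1a2 at 111 and Lce1a1 at 108.5. Flg holds only 9539 different 75-base stretches in 18829 exonic bases, Flg2 10647 in 20803 and Hrnr 4764 in 11187, against 4072 in 4146 for Rptn. How reads from such repeats were counted is not known, so levels and ranks of Flg, Flg2 and Hrnr are uncertain. At the other end, Sprr2a2 stood at 0.808 RPKM, Sprr2a1 at 1.32 and Tchhl1 at 1.57. Those Sprr2a values are uncertain, since these genes share most of their sequence and overlap in the annotation, as given below. By counts, which also reflect length, Flg alone gave 43.3% of all counts of the 47 genes, Flg2, Hrnr and Rptn together 26.7%, Lor 11.7%, the 14 Lce1 genes 9.97%, the 2 Sprr1 genes 2.44%, the 13 Sprr2 genes 1.18% and the 6 Lce3 genes 0.375%.

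**Figure D1:**
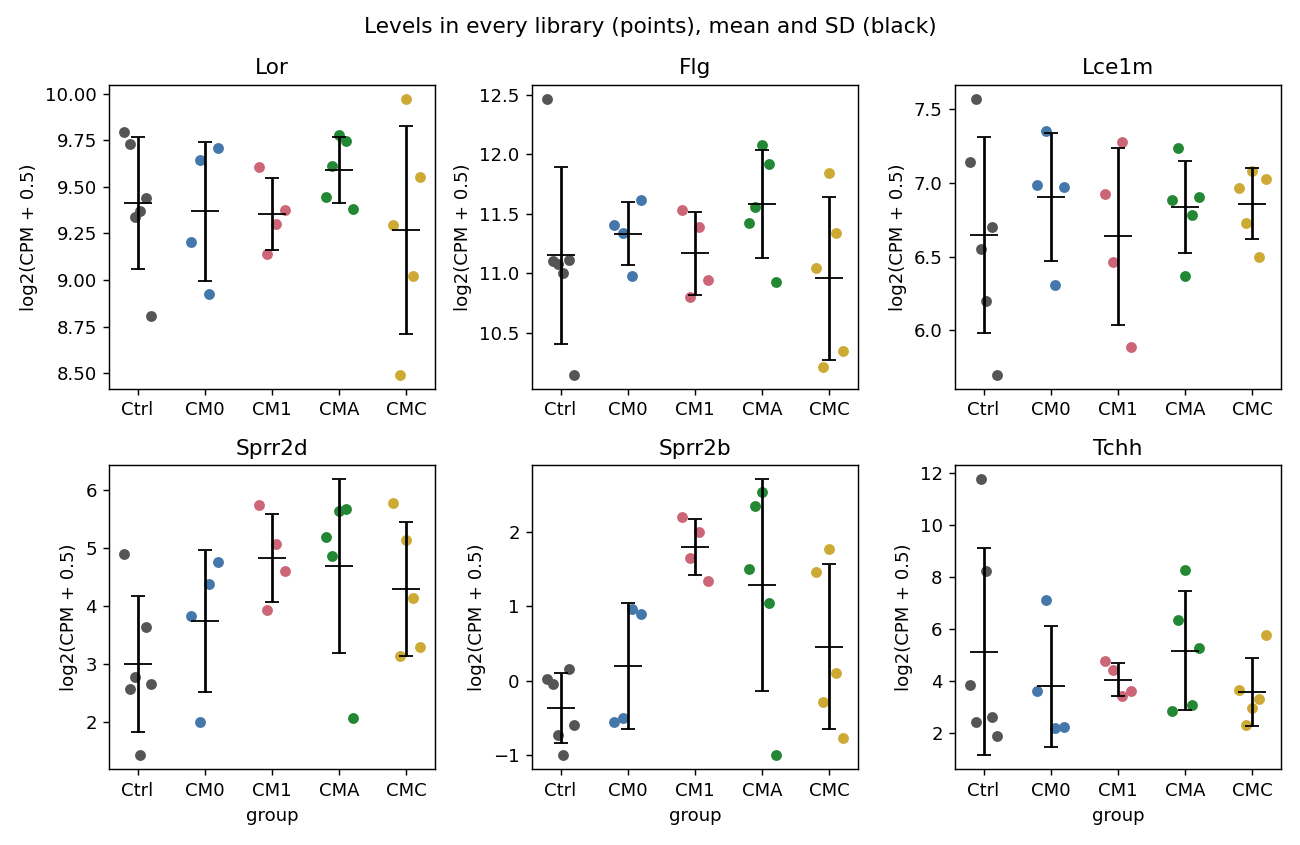
Levels of 6 envelope genes on the log2(CPM + 0.5) scale, 1 point per library, by group, with the group mean and SD in black. Lor stays between 359 and 1004 CPM in all libraries, Sprr2d spans 2.18 to 54.3 CPM, and the highest Tchh point is Ctrl 3.

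Lor, which encodes the most abundant envelope protein, had the lowest SD over libraries of the 44 tested genes, at percentile 69 of all genes tested. Control libraries ran from 447.5 to 888.5 CPM around a median of 677.2. CM0 libraries stood at 589, 800, 485 and 836 CPM, CM1 libraries at 779, 563, 630 and 665, CMA libraries at 696, 781, 876, 858 and 665, and CMC libraries at 627, 359, 1004, 519 and 752. The lowest and the highest of all 24 values were both in CMC, and each group overlapped the controls. Against Ctrl the log2 fold change was -0.04 (95% interval -0.50 to 0.41) in CM0, -0.08 (-0.54 to 0.37) in CM1, 0.15 (-0.27 to 0.58) in CMA and -0.10 (-0.52 to 0.33) in CMC.

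Flg, the profilaggrin gene, was highest in a control. Control values ran from 1135 (Ctrl 6) to 5657 CPM (Ctrl 1) with a median of 2182. CM0 libraries stood at 2709, 2589, 2021 and 3137 CPM, CM1 libraries at 2970, 1788, 2686 and 1973, CMA libraries at 2746, 3016, 4330, 3881 and 1950, and CMC libraries at 2114, 1189, 3666, 2595 and 1303. Ctrl 1 lay above every library with medium and Ctrl 6 below all of them, so that the controls enclosed the other groups. The largest difference of a medium from Ctrl was 0.31 (SE 0.33) in CMA.

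Rptn was less even. Controls ran from 265 to 1381 CPM around a median of 353.6. CM0 libraries stood at 305, 673, 777 and 1151 CPM, CM1 libraries at 1246, 473, 1091 and 732, CMA libraries at 1054, 721, 1397, 1550 and 288, and CMC libraries at 609, 182, 1053, 615 and 604. In each group with medium at least 1 library reached 1053 CPM or more, as did Ctrl 1. The log2 difference from Ctrl was 0.91 in CMA (SE 0.49) and 0.73 in CM1 (SE 0.52), each with an interval that included 0.

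Of the late cornified envelope genes, Lce1m was at 51.3 to 190 CPM in controls (median 98.4), at 126, 163, 78.7 and 125 in CM0, at 121, 87.6, 155 and 58.5 in CM1, at 118, 150, 82.0, 110 and 119 in CMA and at 124, 105, 135, 89.96 and 130 in CMC. Both extremes were controls. Lce1a1 was at 37.7 to 112 CPM in controls (median 65.3), at 71.3, 72.2, 77.4 and 114 in CM0, at 89.2, 65.8, 96.0 and 51.0 in CM1, at 88.8, 96.4, 101, 90.9 and 71.2 in CMA and at 88.4, 45.6, 103, 57.9 and 46.0 in CMC. All 5 CMA libraries lay above the control median, while Ctrl 1 lay above all 5. Lce1a2 followed Lce1a1 closely, from 38.2 CPM in Ctrl 6 to 117 CPM in CM0 4. The 14 Lce1 genes had a pairwise Pearson r of 0.90 at the median of 91 pairs over the 24 libraries.

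With edgeR's quasi-likelihood test and Benjamini-Hochberg adjustment over all 19259 genes, none of the 44 tested envelope genes passed an adjusted p of 0.05 in any of 12 tests: 4 media against Ctrl, their mean against Ctrl, 6 pairs of media, and any difference among the 5 groups. No gene of the 19259 passed either (0% in each test), so that no gene or group below is called changed. DESeq2 called 1 envelope gene, Tchh, in the mean of the 4 media against Ctrl, where it called 0.0779% of all genes, at a log2 fold change of -4.29 and an adjusted p of 0.0496. limma voom with sample quality weights called none.

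**Figure D2:**
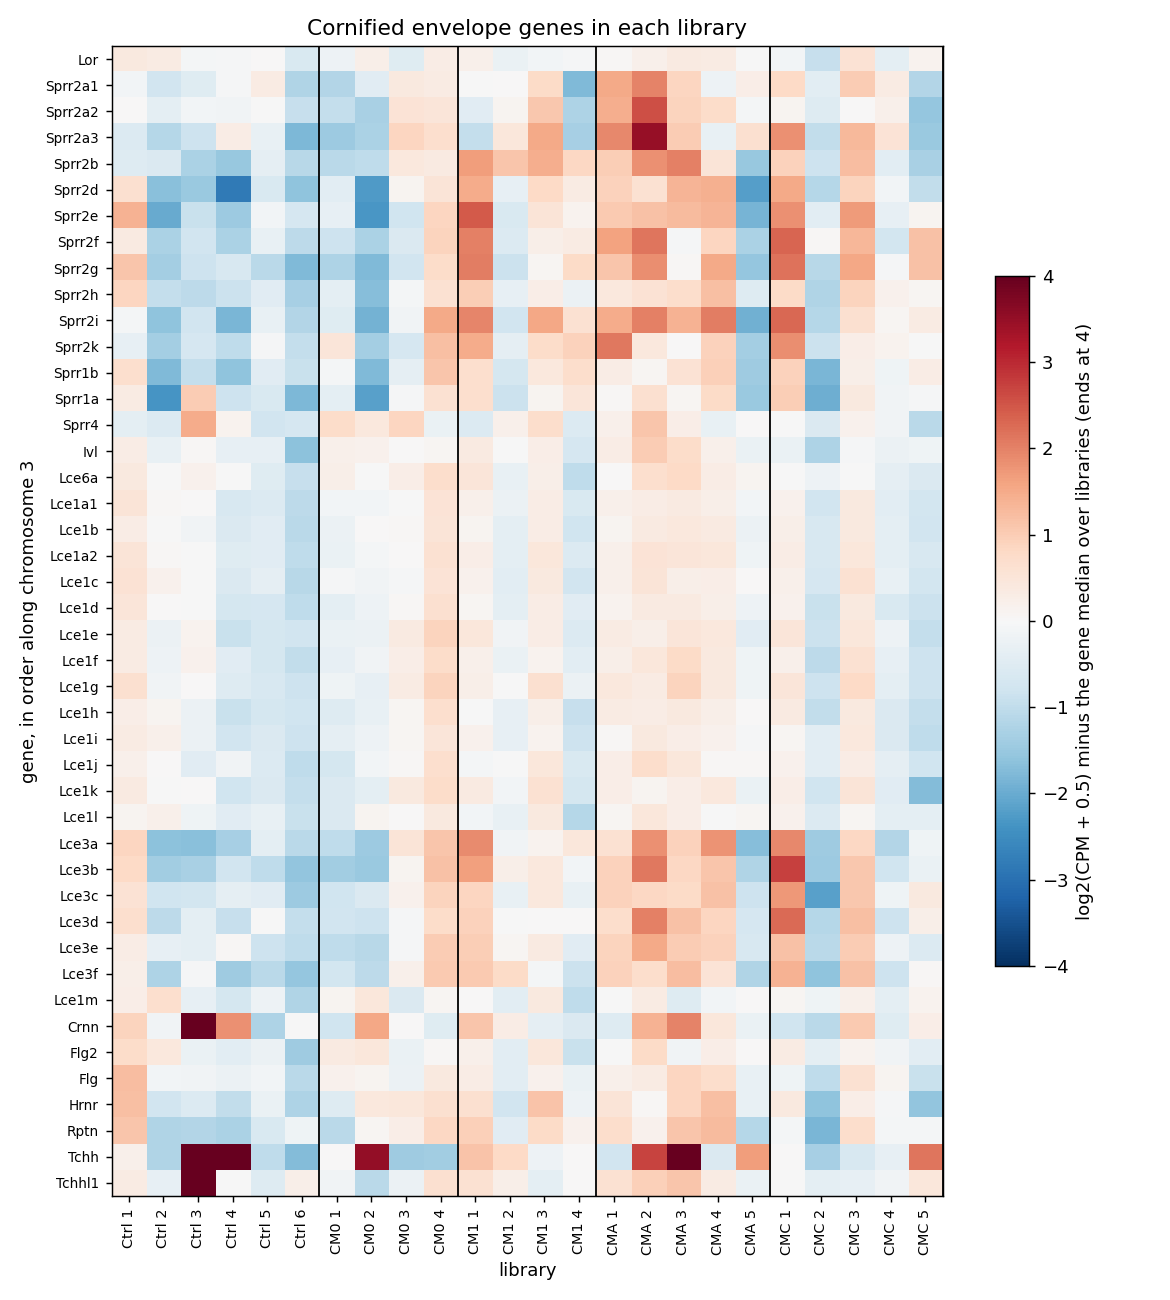
Level of each of the 44 tested genes (rows, in order along chromosome 3) in each of 24 libraries (columns), as log2(CPM + 0.5) minus the gene's median over libraries, with colour ending at 4 in either direction. Lce1 rows are pale, Sprr2 and Lce3 rows are strongly coloured in the same libraries, and Tchh is at the red end in Ctrl 3 and Ctrl 4.

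At an unadjusted p under 0.05, CMA against Ctrl held the most envelope genes: 20 of 44, where 6.57% of all genes reached that p. Of the 20, 19 were higher in CMA, as were 3.81% of all genes at that p. The counts were 3 of 44 in CM0 (4.88% of all genes), 8 in CM1 (7.12%), 10 in CMC (8.48%), 11 in the mean of the 4 media (9.42%) and 8 for any difference among the 5 groups (4.64%). The genes move together across libraries, so these counts are not independent events. Leaving out Ctrl 1 moved the CMA count from 20 to 36, leaving out Ctrl 6 to 13 and leaving out CMA 2 to 9. With limma voom the counts were lower in each of these tests: 12 in CMA (6.54% of all genes), 0 in CM0 (7.12%), 3 in CM1 (7.39%), 0 in CMC (8.67%), 0 in the mean of the media (9.67%) and 2 for any difference (4.9%). With DESeq2 they were 24 in CMA (6.65%), 2 in CM0 (4.72%), 8 in CM1 (7.11%), 11 in CMC (8.26%), 15 in the mean (9.4%) and 9 for any difference (5.52%). Leaving out 1 library also moved the other counts by more than 1.5 times. Without Ctrl 1 they were 8 in CM0, 17 in CM1, 16 in CMC and 26 in the mean, and without Ctrl 3 they were 1, 3, 3 and 5. In CM1 the count was 4 without CM1 1, in CM0 it was 1 without CM0 1, CM0 3 or CM0 4, and in CMC it was 5 without Ctrl 2 or Ctrl 6, 6 without Ctrl 4 and 3 without CMC 1. In the mean of the media it was 6 without Ctrl 2 or Ctrl 6, 7 without Ctrl 4 and 17 without CMC 2. For any difference among the groups it was 17 without Ctrl 1, 14 without CMA 5, 4 without CMA 2 and 3 without Ctrl 3.

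Between media the counts were 1 of 44 for CM1 against CM0 (2.24% of all genes), 4 for CMA against CM0 (3.21%), 1 for CMC against CM0 (3.74%), 2 for CM1 against CMA (3.97%), 0 for CM1 against CMC (2.75%) and 3 for CMA against CMC (6.19%). Those in CMA against CMC were Sprr2a2, at 1.94 (SE 0.59, unadjusted p = 0.0035, adjusted p = 0.80 by edgeR), Ivl, at 0.80 (SE 0.29, unadjusted p = 0.011, adjusted p = 0.80 by edgeR), and Lce6a, at 0.68 (SE 0.27, unadjusted p = 0.019, adjusted p = 0.80 by edgeR). Those in CMA against CM0 were Sprr2a1, Sprr2a2, Sprr2a3 and Sprr2b, at 1.32 to 1.94. Single libraries moved these small counts too. CMA against CM0 had 10 without CM0 4, 9 without CMA 5, 2 without CMA 1, 1 without CM0 1 or CM0 2 and 0 without CMA 2. CMA against CMC had 14 without CMC 3 and 6 without CMC 1. CM1 against CM0 had 5 and CMC against CM0 had 4 without CM0 4, CM1 against CMA had 4 without CM1 3, and the counts of 1 and 2 in these 3 comparisons were 0 without some other single library. With limma voom the counts, in the order given first, were 1 (3.68% of all genes), 4 (3.76%), 2 (5.49%), 1 (3.94%), 1 (4.06%) and 8 (6.9%). With DESeq2 they were 1 (2.04%), 5 (2.97%), 2 (3.58%), 3 (3.84%), 0 (2.56%) and 3 (6.18%).

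The median log2 fold change over the 44 tested genes was highest in CMA at 0.61, was 0.36 in both CM0 and CM1, and was 0.11 in CMC, where the median of all tested genes lay between -0.01 and -0.02. In CMA 41 of the 44 stood higher than in Ctrl, in CM0 38, in CM1 36 and in CMC 31. Across all genes 45.7% stood higher in CMA and 47.4% in CMC. These comparisons share the same 6 control libraries. Single libraries moved these medians. In CMC the sign changed when CMC 3, CMC 1 or Ctrl 6 was left out. In CM0 the median came to 0.077 without CM0 4, 0.22 without Ctrl 6 and 0.57 without Ctrl 1. In CM1 it came to 0.16 without CM1 3, with 26 rather than 36 genes higher, and in CMA it stayed between 0.49 and 0.79.

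**Figure D3:**
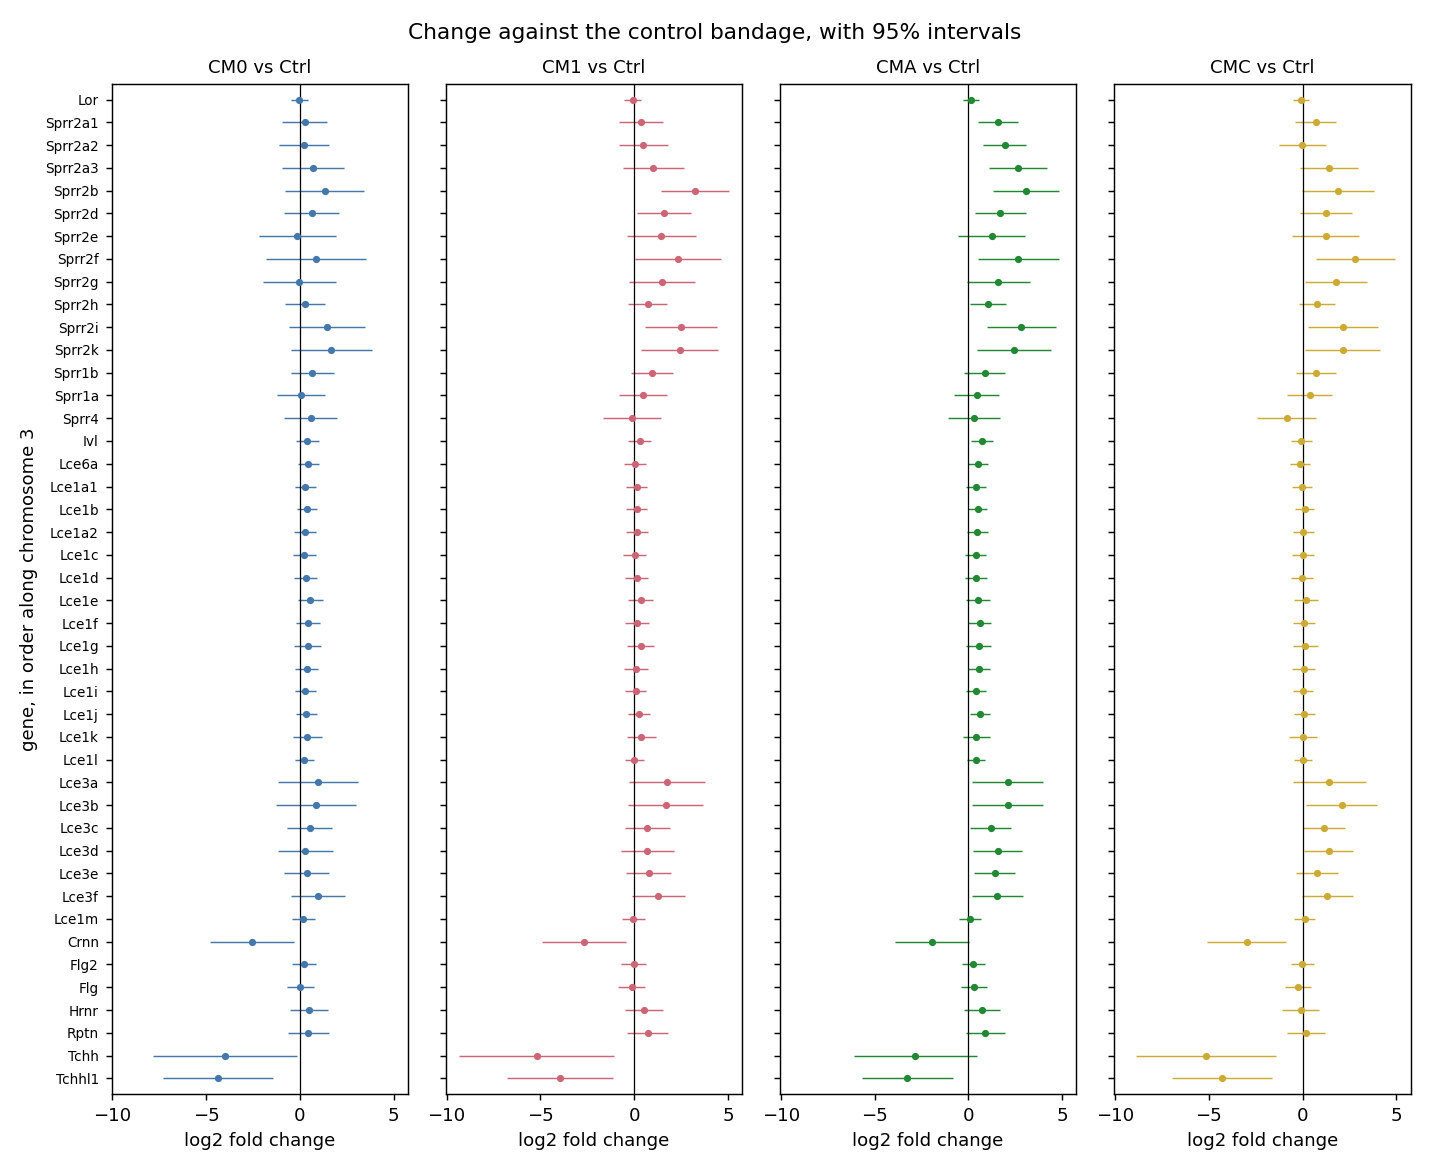
Log2 fold change of each tested gene against Ctrl (points) with its 95% interval (bars) for the 4 media. The Lce1 points lie close to 0, the Sprr2 and Lce3 points to the right with wide intervals, and Crnn, Tchh and Tchhl1 to the left with the widest.

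The small proline-rich proteins held the largest positive values. All 11 tested Sprr2 genes were higher in CMA and in CM1 than in Ctrl, 10 of 11 in CMC and 9 of 11 in CM0, with median log2 fold changes of 1.94, 1.49, 1.39 and 0.65. None passed the adjusted threshold. Summed over 13 Sprr2 genes, the level was 32.1 ± 20.5 CPM in Ctrl (SD, n = 6), 47.0 ± 31.6 in CM0 (n = 4), 81.6 ± 38.3 in CM1 (n = 4), 126 ± 72.6 in CMA (n = 5) and 78.5 ± 58.2 in CMC (n = 5).

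Sprr2b was the 1 envelope gene whose CM1 libraries did not overlap the controls. It held 0 to 5 counts in each control and met the count rule only through libraries with medium. Its separation and fold changes are therefore not independent of that rule. The 4 CM1 libraries stood at 4.09, 2.62, 3.48 and 2.03 CPM, against 0 to 0.612 CPM in controls (median 0.320). Such separation occurred for 1 of 44 envelope genes and for 1.19% of all 19259 tested genes in CM1, and for no envelope gene in CM0, CMA or CMC, where 0.815%, 0.379% and 0.519% of all genes were so separated. CMA libraries held 2.34, 4.58, 5.29, 1.56 and 0 CPM, so that CMA 5 was at the floor while the other CMA libraries were above every control. The log2 fold change was 3.25 in CM1 (SE 0.86, edgeR adjusted p = 0.70) and 3.08 in CMA (SE 0.85, adjusted p = 0.73), and it was 2.39 in the mean of the 4 media (SE 0.76, adjusted p = 0.43).

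Sprr2d, the Sprr2 gene with the highest level per length, ranged from 2.18 to 29.2 CPM in controls (median 6.09). It was at 13.7, 3.48, 20.3 and 26.6 CPM in CM0, at 52.6, 14.7, 33.0 and 23.7 in CM1, at 35.8, 28.5, 49.1, 50.3 and 3.68 in CMA and at 54.3, 8.27, 34.6, 17.1 and 9.25 in CMC. CMA 5 lay below the control median, CMA 2 just below the highest control, Ctrl 1, and the other 3 CMA libraries above it. Sprr2i stood 2.48 higher in CM1 on the log2 scale (SE 0.92, edgeR adjusted p = 0.70), Sprr2f 2.82 higher in CMC (SE 1.02, adjusted p = 0.55) and Sprr2k 1.68 higher in CM0 (SE 1.05, adjusted p = 0.95).

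In CMA the values of Sprr2i, at 2.83 (SE 0.88), Sprr2f, at 2.67 (SE 1.04), and Sprr2k, at 2.45 (SE 0.96), were also large, each with an edgeR adjusted p = 0.73. After Sprr2b the smallest unadjusted p-values in CMA belonged to Sprr2a3 and Sprr2a2, 2 of the nearly identical Sprr2a genes. Sprr2a3 stood at 44.3, 134, 23.7, 9.22 and 17.9 CPM in CMA against 2.91 to 14.1 in controls (median 6.90), with the highest value in CMA 2. Its log2 fold change was 2.64 (SE 0.74, edgeR adjusted p = 0.73) and 1.69 without CMA 2, and that of Sprr2a2 was 1.94 (SE 0.56, adjusted p = 0.73). Counts of these genes are uncertain, since 94.3% of the 75-base windows of Sprr2a1 transcripts, 94.7% of those of Sprr2a2 and 47.5% of those of Sprr2a3 also occur in another listed gene, Sprr2a1 and Sprr2a2 overlap in the annotation, and no source used here says how reads with several matches were counted. The next highest shares were 45.6% for Lce3f, 41.1% for Lce3e, 38.6% for Lce3d and 28.0% for Lce3c. No window was shared with another gene by 21 of the 47 genes, where repeats within a gene, as in Flg, were not counted.

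The 2 Sprr1 genes, whose proteins are also cross-linked into the envelope, showed smaller differences than the Sprr2 medians in CM1, CMA and CMC. Sprr1b stood at 21.7 to 118 CPM in controls (median 38.6), at 70.3, 21.6, 57.3 and 162 in CM0, at 119, 45.7, 99.6 and 120 in CM1, at 91.5, 78.3, 111, 144 and 27.4 in CMA and at 140, 20.6, 87.5, 65.3 and 91.0 in CMC. In every group with medium at least 1 library lay above Ctrl 1, the highest control. The log2 fold changes were 0.66 (SE 0.55), 0.96 (SE 0.55), 0.87 (SE 0.52) and 0.71 (SE 0.52) in that order, all with intervals that included 0. Sprr1a ran from 13.02 to 139.6 CPM in controls (median 41.3), while CM0 libraries ran from 14.7 to 104 CPM, CM1 libraries from 37.1 to 109.8, CMA libraries from 23.9 to 116 and CMC libraries from 17.2 to 135. Its highest library was a control, Ctrl 3, and no library with medium lay above all controls. Its log2 fold changes were 0.07 (SE 0.61), 0.47 (SE 0.61), 0.45 (SE 0.58) and 0.38 (SE 0.58) in the same order. Sprr3 had no count in any control, which allows up to 3 counts per library, and Sprr4 averaged 0.695 CPM.

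The 6 Lce3 genes were higher in all 4 media than in Ctrl. Their median log2 fold change was highest in CMA at 1.55, followed by 1.36 in CMC, 1.04 in CM1 and 0.69 in CM0. Lce3c, the most abundant per length, stood at 2.08 to 9.92 CPM in controls (median 4.20) and at 12.8, 12.1, 11.5, 15.4 and 3.50 CPM in CMA. Here too 4 of 5 CMA libraries lay above every control and CMA 5 below the control median. In CMC the values were 23.1, 1.06, 14.4, 5.78 and 8.82 CPM, with CMC 1 the highest and CMC 2 the lowest of all 24 libraries. Its log2 fold change was 1.19 in CMA (SE 0.53) and 1.14 in CMC (SE 0.53), with edgeR adjusted p = 0.74 and 0.58.

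The 14 Lce1 genes differed less. All 14 were higher in CM0 and in CMA than in Ctrl, 13 in CM1 and 12 in CMC, with median log2 fold changes of 0.33, 0.46, 0.14 and 0.06. Their summed level was 524 ± 189 CPM in Ctrl (SD, n = 6), 644 ± 151 in CM0 (n = 4), 569 ± 181 in CM1 (n = 4), 691 ± 86.4 in CMA (n = 5) and 547 ± 186 in CMC (n = 5). Summed Lce1 levels spanned 2.96-fold over the 24 libraries, summed Lce3 levels 19.1-fold and summed Sprr2 levels 18.1-fold.

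Ivl, the early scaffold of the envelope, stood at 14.7 to 56.7 CPM in controls (median 37.5) and at 57.2, 94.7, 76.8, 53.5 and 38.3 CPM in CMA. The 3 libraries CMA 1, CMA 2 and CMA 3 lay above every control. Its log2 fold change in CMA was 0.74 (SE 0.27, 95% interval 0.17 to 1.30, edgeR adjusted p = 0.73). In CMC the libraries stood at 38.4, 19.4, 44.7, 39.5 and 41.6 CPM, within the control range.

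Tchh, Tchhl1 and Crnn gave the largest negative values. Tchh encodes trichohyalin, and Tchhl1 and Crnn encode its relatives trichohyalin-like 1 and cornulin. Tchh stood at 3433 CPM in Ctrl 3 and 300 CPM in Ctrl 4, and the other 4 controls lay between 3.16 and 13.6 CPM. With media, Tchh was highest in CMA 3 (309 CPM), CM0 2 (138 CPM) and CMA 2 (79.4 CPM). Crnn was at 83.7 CPM and Tchhl1 at 61.9 CPM in Ctrl 3, and no other library exceeded 9.78 CPM for Crnn or 1.80 CPM for Tchhl1.

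For the mean of the 4 media against Ctrl the log2 fold change was -4.29 for Tchh (SE 1.05, edgeR adjusted p = 0.33), -3.97 for Tchhl1 (SE 0.79, adjusted p = 0.16) and -2.53 for Crnn (SE 0.66, adjusted p = 0.37). For Tchhl1 the value was -4.36 in CM0 (SE 1.41, edgeR adjusted p = 0.95), -4.28 in CMC (SE 1.28, adjusted p = 0.55), -3.96 in CM1 (SE 1.36, adjusted p = 0.70) and -3.26 in CMA (SE 1.17, adjusted p = 0.73). Tchh had -5.19 in CM1 (SE 1.99, edgeR adjusted p = 0.70), -5.16 in CMC (SE 1.79, adjusted p = 0.55) and -3.99 in CM0 (SE 1.85, adjusted p = 0.95). Crnn had -2.98 in CMC (SE 1.02, edgeR adjusted p = 0.55) and -2.54 in CM0 (SE 1.07, adjusted p = 0.95). Without Ctrl 3 the values for the mean of the media were 0.27 for Tchhl1, -1.02 for Tchh and -0.26 for Crnn. Without Ctrl 3 and Ctrl 4 together, an alternative chosen after seeing the data, the values were 2.23 for Tchh, 0.27 for Tchhl1 and 0.37 for Crnn, and the number of envelope genes at an unadjusted p under 0.05 was 4 rather than 11 for the mean of the media and 11 rather than 20 for CMA.

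Inner root sheath markers were also highest in Ctrl 3. The 11 listed genes, not all of them keratins, summed to 34.0 to 4998 CPM in Ctrl, 52.4 to 540 in CM0, 61.9 to 112 in CM1, 62.8 to 914 in CMA and 57.0 to 180 in CMC. The low sums hold little sheath keratin. In Ctrl 6, at 34.0 CPM, Krt71 stood at 0.0831, Krt25 at 0.249 and Gata3 at 32.4 CPM. Krt71 alone was at 3.37 to 19.5 CPM in CM1 and at 0 to 35.5 CPM in CMC. Of the listed genes, 10 of 10 tested ones were lower in the mean of the media than in Ctrl. Hair shaft markers, 13 of 14 matched and 4 tested, had a mean sum of 276 ± 632 CPM in Ctrl (SD, n = 6). They summed to 1564 CPM in Ctrl 3, to 1.41 CPM in Ctrl 6, the lowest of all libraries, and to 90.2 CPM or less in every library with medium. Their part in the difference between media and Ctrl was not tested.

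Across the 24 libraries the envelope genes followed different keratins. The 10 relations tested were chosen with earlier results of these data known. Tchh with Krt71 was the closest of them, with Pearson r = 0.96 and Spearman rho = 0.95. Each had a permutation p of 1e-05, the smallest 100000 resamples can give, and an adjusted p of 5e-05. Without Ctrl 3 and CMA 3, the 2 libraries farthest from the Krt71 median, r was 0.95. Sprr1b followed Krt6a, a keratin of activated wound-edge epidermis, with r = 0.90 and rho = 0.90 (permutation p = 1e-05 for each, adjusted p = 5e-05) and r = 0.89 without Ctrl 4 and CM0 2. When group means were removed, r was 0.97 for the former pair and 0.87 for the latter.

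Krt10, the keratin of the ordinary spinous layer, was related to Ivl (r = 0.74, rho = 0.72, permutation adjusted p = 0.00014 and 0.0003), to Lce1a1 (r = 0.71, rho = 0.67, adjusted p = 0.00014 and 0.00094) and to Flg (r = 0.66, rho = 0.64, adjusted p = 0.0007 and 0.0016). Without CMA 3 and CMC 2, r was 0.62, 0.66 and 0.52. Krt10 with Lor had r = 0.56 and rho = 0.45 (permutation adjusted p = 0.0061 and 0.031), and Krt10 with Sprr1b had r = 0.49 and rho = 0.47 (0.018 and 0.026). Without the same 2 libraries r was 0.34 for Lor and 0.35 for Sprr1b (permutation adjusted p = 0.14 and 0.13). Those libraries had the highest and the lowest Krt10, so leaving them out narrows its range. When group means were removed, r was 0.61 for Lor and 0.57 for Sprr1b. Lor and Flg were related at r = 0.73 and rho = 0.73 (adjusted p = 0.00014 and 0.0003) and at r = 0.57 without Ctrl 6 and CMC 2. Krt71 with Lor gave r = 0.24 and rho = 0.14 (adjusted p = 0.27 and 0.50), and Krt6a with Ivl gave r = 0.34 (adjusted p = 0.12) and rho = 0.56 (adjusted p = 0.0068).

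**Figure D4:**
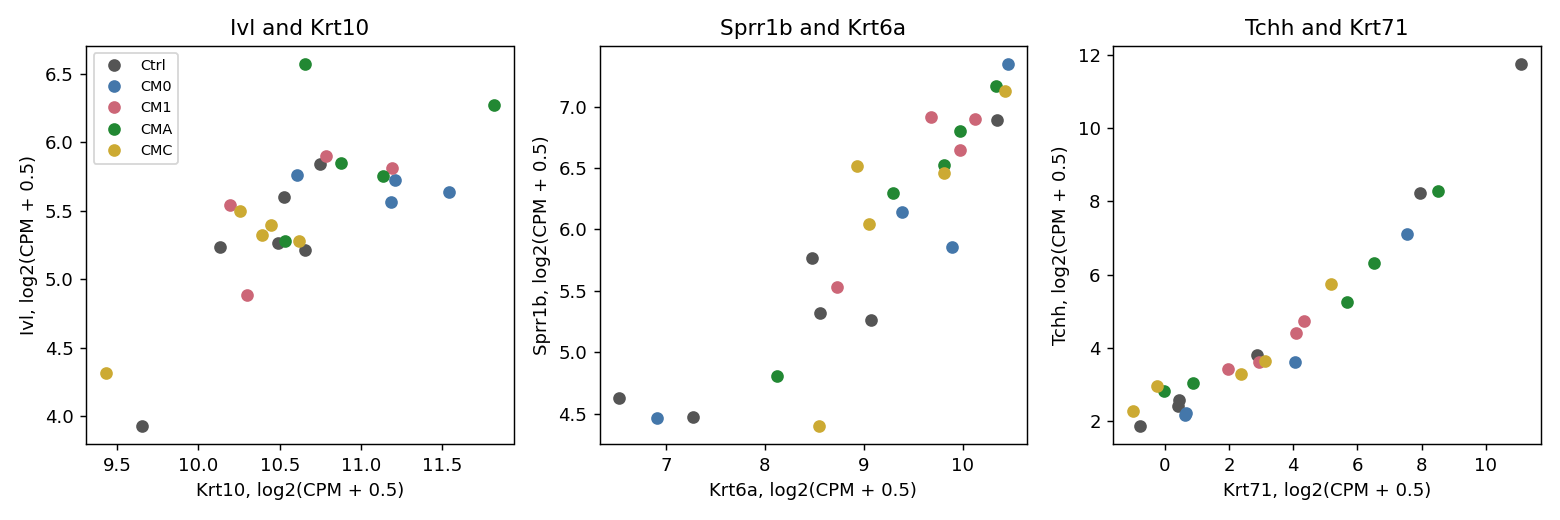
Ivl against Krt10, Sprr1b against Krt6a and Tchh against Krt71, each on the log2(CPM + 0.5) scale, 1 point per library, coloured by group. Pearson r is 0.74, 0.90 and 0.96 in that order, and points of all groups lie along each trend.

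With all 44 tested genes set against the same 3 keratins, a description chosen after seeing the data, 21 had their highest r with Krt10, 19 with Krt6a and 4 with Krt71. By r, the Krt10 set held Lor, Ivl, Lce6a, Flg, Flg2, Hrnr, 13 of 14 Lce1 genes, Sprr2a1 and Sprr2a2. The Krt6a set held both Sprr1 genes, all 6 Lce3 genes, 9 of 11 Sprr2 genes, Rptn and Lce1e. Sets follow the larger r alone, and the difference between keratins was not tested. Sprr2a3 had r = 0.3287 with Krt6a and 0.3278 with Krt10, and Lce1e 0.71 and 0.69. The place of the Lce1 genes depended on the measure: by Spearman rho 8 of the 14 were higher with Krt6a and 6 with Krt10, and over the 44 genes 13 had their highest rho with Krt10, 28 with Krt6a and 3 with Krt71. Lce1g, for example, had r = 0.69 with either keratin and rho = 0.63 with Krt10 and 0.79 with Krt6a. Both Sprr1 genes, all 6 Lce3 genes and 10 of 11 Sprr2 genes were higher with Krt6a by rho as well, and Lor, Ivl, Lce6a, Flg, Flg2 and Hrnr with Krt10. The Krt71 set by r was Tchh (r = 0.96), Crnn (0.76), Tchhl1 (0.53) and Sprr4 (0.49). Without Ctrl 3 and CMA 3 these were 0.95, 0.59, 0.01 and 0.30. By rho, Tchhl1 was higher with Krt6a (0.47) than with Krt71 (0.37). Highest of all with Krt6a was Sprr2d at 0.91, and highest with Krt10 was Hrnr at 0.78, which also had 0.62 with Krt6a. Krt10 and Krt6a were themselves related at r = 0.40, and all these values come from the same libraries and share their scaling.

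**Figure D5:**
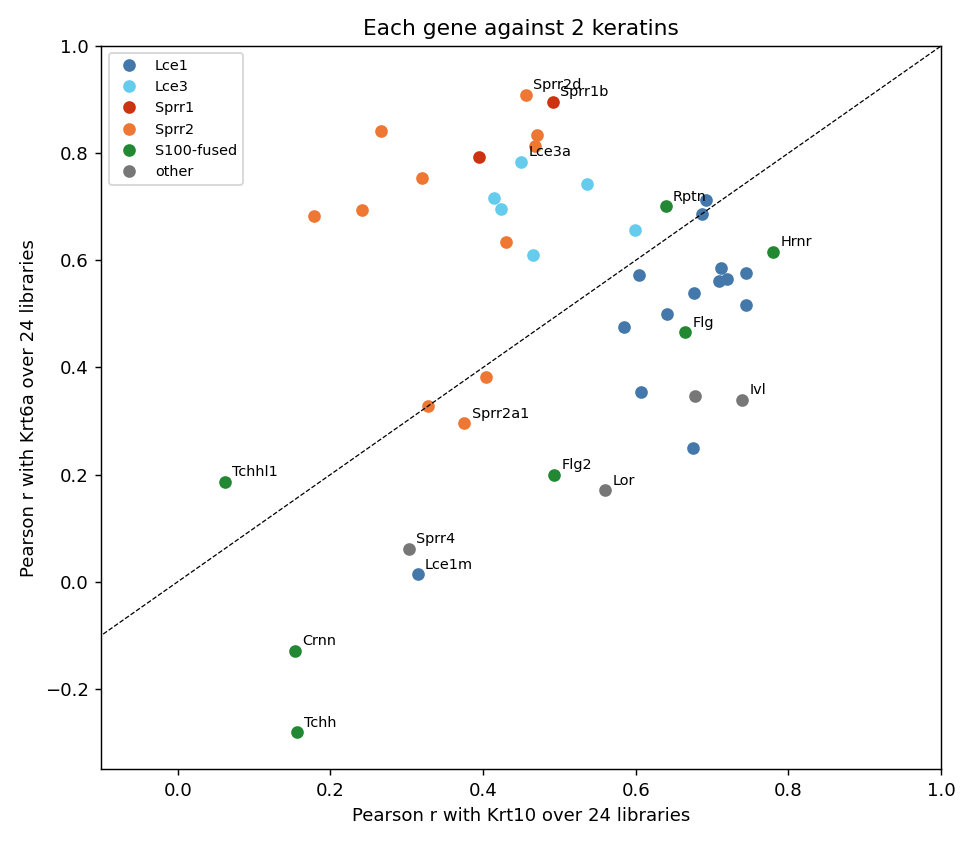
Pearson r with Krt10 (horizontal) and with Krt6a (vertical) over 24 libraries for each of the 44 tested genes, coloured by family, with equality dashed. Sprr1, Lce3 and 9 of 11 Sprr2 points lie above the line, 13 of 14 Lce1 points lie below it (6 of 14 by Spearman rho, which is not plotted), and Tchh and Crnn are the 2 points with negative r on the vertical axis.

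Wound-edge markers also differed in level between libraries. The 15 listed genes summed to 948 to 6143 CPM in Ctrl, 1179 to 6776 in CM0, 2423 to 5867 in CM1, 1905 to 6365 in CMA and 1910 to 6906 in CMC. CMC 1, the highest library for this sum, was also the highest for the summed Lce3 (70.8 CPM) and Sprr1 genes (274 CPM), whereas the summed Sprr2 genes were highest in CMA 2 (235.5 CPM). The lowest libraries differed: Ctrl 4 for the wound-edge sum, CMC 2 for Lce3, Ctrl 2 for Sprr1 and CM0 2 for Sprr2. Their part in the Sprr and Lce3 differences was not tested.

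Ratios of an envelope gene to a keratin were compared with exact 2-sided permutation tests, 12 in all. The log2 ratio of Lor to Krt10 was -0.95 ± 0.20 in Ctrl (SD, n = 6) and -1.77 ± 0.38 in CM0 (n = 4), a difference of -0.81 with 0 of 4 CM0 libraries above the control median (exact p = 0.0048, the smallest this design allows, adjusted p = 0.057). It was -1.41 ± 0.39 in CMA (n = 5), a difference of -0.46 (exact p = 0.022, adjusted p = 0.13). The other 10 adjusted p-values ran from 0.29 to 0.98, among them Sprr1b to Krt14, whose difference from Ctrl was 0.49 in CM1, 0.42 in CMC, 0.12 in CM0 and 0.06 in CMA. No ratio passed the adjusted threshold.

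The enzymes and regulators of the same process are given from fixed lists, none of whose members passed the adjusted threshold in any comparison by edgeR. The counts at an unadjusted p under 0.05 below stand against 6.57% of all genes in CMA, 4.88% in CM0, 7.12% in CM1 and 8.48% in CMC. Of 19 tested genes for cross-linking and plakins, which include the transglutaminases, 18 were higher in CMA than in Ctrl with a median log2 fold change of 0.49, 6 of them at that p. In CM0, CM1 and CMC 17, 18 and 15 of these 19 were higher (medians 0.17, 0.21 and 0.11, 0 at that p in each). Of 17 genes that process profilaggrin and corneodesmosomes 14 were higher in CMA (median 0.60, 3 at that p), 12 in CM0 (0.31, 0), 13 in CM1 (0.21, 1) and 12 in CMC (0.09, 2). All 20 genes of barrier lipid synthesis were higher in CMA (median 0.46, 11 at that p), as were 20 in CM0 (0.18, 1), 19 in CM1 (0.26, 2) and 13 in CMC (0.05, 0). Of 20 differentiation transcription factors 18 were higher in CMA (median 0.23, 3 at that p), 14 in CM0 (0.05, 1), 11 in CM1 (0.003, 0) and 10 in CMC (-0.02, 1). Of 10 tested S100 genes of the complex 6 were higher in CMA (median 0.15, 0 at that p), 7 in CM0 (0.05, 1), 7 in CM1 (0.04, 3) and 6 in CMC (0.18, 1).

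Markers of epidermal layers also stood higher than in Ctrl in several media. All 13 suprabasal markers were higher in CMA (median 0.67, 8 at an unadjusted p under 0.05), 12 in CM0 (0.58, 5), 11 in CM1 (0.26, 2) and 7 in CMC (0.03, 0). Of 14 wound-edge markers 12 were higher in CMA (median 0.72, 4 at that p), 13 in CM0 (0.62, 2), 12 in CM1 (0.78, 0) and 11 in CMC (0.54, 0). Of 12 basal markers 10 were higher in CMA (median 0.25, 2 at that p), 9 in CM0 (0.09, 0), 8 in CM1 (0.07, 1) and 9 in CMC (0.08, 1). Summed suprabasal markers spanned 2976 to 7765 CPM in Ctrl and, with media, 5558 to 13330 in CMA, 5876 to 10040 in CM0, 5006 to 9075 in CM1 and 3121 to 7102 in CMC. Markers of other tissues in CMA had median log2 fold changes of -0.16 for sebaceous gland (9 genes), 0.10 for fibroblasts (7), -0.12 for macrophages and neutrophils (9), -0.75 for skeletal muscle (8), 0.20 for adipocytes (7) and -0.05 for endothelium (7). Whether the share of epidermis in the tissue plays a part in the envelope values was not tested.

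The spread between libraries was large for these genes. The median SD of log2 CPM over the 24 libraries was 0.83 for the 44 tested genes and 0.26 for all tested genes, all 44 lay above the latter and 33 were in the top 10% of all genes. Lor was the steadiest of the genes described, with an SD of 0.35, and Tchh had an SD of 2.43. The median biological coefficient of variation was 0.56 against 0.16.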

How the data were processed

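Raw counts per gene, 1 table of 54232 genes for each of 24 libraries, were analysed as deposited by the authors. Per the labels' protocols, total RNA was depleted of ribosomal RNA with Ribo-Zero and made into libraries with the NEBNext Ultra kit, which does not mark strand. The submitters' processing notes name bcl2fastq 2.17, FastQC, cutadapt, STAR, featureCounts, DESeq2 and GRCm38 without settings, and antisense or overlapping genes cannot be separated. Flg overlaps Rplp0-ps1, and Hrnr, Rptn and Tchh overlap Gm37245.

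Gene symbols and exonic lengths came from GENCODE M21, in which 54165 identifiers matched. Genes with 10 or more counts in at least 4 libraries were fitted over all 5 groups with edgeR 4.0.16 (TMM scaling, robust quasi-likelihood). DESeq2 1.42.0 and limma 3.58.1 were alternatives, as were RLE scaling, other filters, fits of 2 groups and leaving out each library. The edgeR code was tested on simulated counts. Single genes used log2(CPM + 0.5), exact permutation tests for ratios and 100000 resamples for correlations. Named genes are any member, with full statistics for the 3 of smallest p and the largest value in each direction in each comparison of a medium, or of their mean, with Ctrl, and values in every library for the 6 highest per kilobase. Other members are given values where a family is described. Promoters came from RefSeq, and protein sequences were not analysed here. The genes, lists and tests were chosen with earlier results of these data known. Precision is limited by 4 to 6 libraries per group.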

Additional observations from a re-analysis of the deposited data

Results flagged for a closer look

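Each envelope gene was examined in each group for a library that stood apart, by its gap to the nearest other library as a share of the group's range on the log2(CPM + 0.5) scale. Of 220 sets of values 12 stood apart, which is close to the 1 in 20 that chance alone gives. The genes move together across libraries, so these sets are not independent, and the cases below are descriptions only.

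CMA 5 was the low library in 5 cases: Sprr2d at 3.68 CPM, Sprr2e at 0.189, Sprr2i at 0.0945, Lce3c at 3.50 and Lce3f at 0.850. It was also low for Lce1e at 13.2 CPM. Krt6a stood at 277 CPM in CMA 5, the lowest of that group, while Lor there was 665 CPM, near the control median of 677.2. Ivl was low in Ctrl 6 at 14.7 CPM and in CMC 2 at 19.4 CPM, the libraries with the lowest Krt10 (804 and 689 CPM). Lce1c was high in CM0 4 at 67.9 CPM, Lce3b in Ctrl 1 at 3.41 CPM and Lce3d in CM1 1 at 4.65 CPM. Tchhl1 stood at 61.9 CPM in Ctrl 3, the library with the highest Krt71. The part of these keratin levels in the envelope values was not tested.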

How the results depend on the processing

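Recomputing 54 values under the alternatives gave 1127 values. Of these, 1092 kept their direction and their side of the threshold (counts within 1.5 times, medians within the spread), 30 changed sign and 5 changed otherwise. The spread allowed for medians was 0.50, a pooled within-group SD, which is larger than the medians of CM0, CM1, CMC and the mean. Fits that left out a library from outside a comparison were counted too, so the 1092 do not measure robustness. DESeq2 called 1 gene in the mean of the media against Ctrl, Tchh (log2 fold change -4.29), where edgeR called 0. The median over tested genes in CMC ran from -0.0641 to 0.302 when single libraries were left out. The difference from Ctrl in log2 ratio ran from -0.178 to 0.0933 for Lor to Krt10 in CMC, -0.269 to 0.151 for Flg to Krt10 in CMC, -0.0973 to 0.348 for Sprr1b to Krt14 in CM0 and -0.0953 to 0.225 in CMA. Without the 2 libraries farthest from the median of the keratin, Pearson r was 0.34 for Krt10 with Lor, 0.35 for Krt10 with Sprr1b and 0.46 for Krt6a with Ivl, the last now past the threshold. Tchhl1 in CMA was 0.30 with limma voom. When single libraries were left out, Tchhl1 ran from -4.27 to 0.28 in CM1, -3.51 to 0.98 in CMA and -4.22 to 0.27 in the mean, each high value without Ctrl 3. Without Ctrl 3 and Ctrl 4 together, chosen after seeing the data, Tchh was 2.53 in CM0, 1.34 in CM1, 1.37 in CMC and 2.23 in the mean, Tchhl1 0.27 in CM1, 0.97 in CMA and 0.27 in the mean, and Crnn 0.35 in CM0 and 0.37 in the mean. The cause of these changes was not tested. No paired analysis was possible because the labels give no replicate numbers, and those used here follow the order of deposit.

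Low genes such as Sprr2b, Sprr2f, Sprr2k and Sprr4 rest on few counts per library. Sprr2b and Sprr2k reached 10 counts in no control and were tested only because libraries with medium did. Differences between Sprr2a1, Sprr2a2 and Sprr2a3 are limited by shared sequence.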
